A study of Mus musculus with 6 samples.

Results

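The genes described here encode the HGF and EGF receptor growth signals of the liver: hepatocyte growth factor (Hgf) and its receptor (Met), the receptors Egfr, Erbb2 and Erbb3, and the ligands Areg, Ereg, Hbegf, Tgfa and Btc. These 10 genes were named by their place in the pathway, and each was read from its brightest probe set annotated to a single gene. A probe set is a group of short probes on the array that report 1 transcript. Of the 10 genes 9 were measured in this way, among 17097 genes on the arrays, and they had 22 such probe sets. Areg, which encodes amphiregulin, had no probe set named in the annotation used and was not analysed here.

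HGF is made mainly by stellate and endothelial cells, is activated by proteolytic cleavage and binds the tyrosine kinase MET on hepatocytes. The EGF family ligands are made as membrane-bound precursors, are released by metalloproteases and bind EGFR. ERBB2 has no known soluble ligand, and ERBB3, a neuregulin receptor with a weak kinase, signals as the partner of another ERBB receptor. Both systems act on RAS-ERK and PI3K-AKT signalling and are known as the direct mitogens of hepatocytes after loss of liver mass.

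RNA came from the remnant liver of mice with a hepatocyte-specific Klf6 knockout, labelled DeltaKlf6 (n = 3), and of wildtype mice (n = 3), all on the C57Bl/6 strain. Every animal had lost 70% of its liver 12 h before, so both groups carry the surgery, and no unresected liver was analysed here. Each array holds RNA of 1 animal, and the study as a whole used 6 animals a group. The sources used here give no Cre driver, age or sex. The values are log2 expression, and levels of different genes are not compared, since each probe set binds with its own efficiency.

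Klf6 itself did not separate the groups, and by its brightest probe set was below wildtype in only 1 of the 3 libraries labelled DeltaKlf6. It was at 7.03, 4.61 and 3.15 in libraries labelled DeltaKlf6 1, 2 and 3, against 5.09, 4.43 and 5.20 in wildtype 1, 2 and 3, so DeltaKlf6 1 lay above and DeltaKlf6 2 within the wildtype range. A second probe set gave 5.81, 2.82 and 2.83 for DeltaKlf6 1, 2 and 3, with wildtype at 3.41 to 4.03, and the third 5.88, 4.12 and 3.74 for DeltaKlf6 1, 2 and 3, with wildtype at 3.73 to 4.44. Whether these probe sets lie in the deleted part is not given, and whole liver holds other cells. Directions below are therefore between libraries as labelled, and DeltaKlf6 1 stands for the library labelled so. Array medians spanned 3.30 to 3.45, and the median SD of a gene was 0.352 in the DeltaKlf6 group and 0.240 in wildtype. DeltaKlf6 3 stood apart, with an upper quartile of 5.08, against 5.50 to 5.63 in the other arrays, and a limma array weight of 0.378, the lowest of the 6. The 3' minus 5' signal of Gapdh, an RNA quality control, was 3.47, 3.45 and 4.83 in DeltaKlf6 1, 2 and 3, and 4.06 to 4.43 in wildtype. That of actin was 5.05 in DeltaKlf6 3 and no higher than 4.22 in DeltaKlf6 1 and 2, and 4.86 to 5.39 in wildtype. Hepatocyte markers were bright in both groups, with a mean of 11.77 to 12.14 over 8 markers in the DeltaKlf6 group as labelled and 11.86 to 11.88 in wildtype.

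KLF6 is a zinc-finger factor of a family that binds GC-rich and CACCC sequences, and the promoter windows of 3 of the genes are shown for that reason: Btc, with the largest positive difference of the set, Met, with a negative one, and Egfr, the main hepatocyte receptor of the EGF family. Each window runs from 250 bases before to 50 after the start of the gene, 5′ to 3′ on the strand of the gene, from RefSeq on GRCm38.p6. Capitals mark CACCC or GGGCGG on either strand (read as GGGTG or CCGCCC on the other).
Btc, chr5:91402945-91403244, minus strand: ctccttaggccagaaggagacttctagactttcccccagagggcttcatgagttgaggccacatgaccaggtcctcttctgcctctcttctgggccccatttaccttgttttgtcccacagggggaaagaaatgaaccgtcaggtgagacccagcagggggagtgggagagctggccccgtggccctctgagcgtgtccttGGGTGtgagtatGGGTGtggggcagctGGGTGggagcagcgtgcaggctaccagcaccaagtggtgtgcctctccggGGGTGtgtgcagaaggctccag
Met, chr6:17463707-17464006, plus strand: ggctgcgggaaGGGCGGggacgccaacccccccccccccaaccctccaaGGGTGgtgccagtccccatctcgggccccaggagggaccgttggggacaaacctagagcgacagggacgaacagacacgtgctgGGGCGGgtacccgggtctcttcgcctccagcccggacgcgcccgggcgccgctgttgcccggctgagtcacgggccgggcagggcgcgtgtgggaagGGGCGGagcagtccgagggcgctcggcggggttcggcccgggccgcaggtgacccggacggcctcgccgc
Egfr, chr11:16751953-16752252, plus strand: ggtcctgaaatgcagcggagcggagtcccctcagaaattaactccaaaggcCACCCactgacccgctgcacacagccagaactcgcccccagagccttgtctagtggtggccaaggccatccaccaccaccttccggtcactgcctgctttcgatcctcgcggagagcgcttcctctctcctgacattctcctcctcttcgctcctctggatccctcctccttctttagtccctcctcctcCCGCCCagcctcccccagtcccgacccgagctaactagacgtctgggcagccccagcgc

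The Btc window holds 4 CACCC matches and 0 of GGGCGG, and at least 4 CACCC matches stood in 3.10% of the 32851 windows in the table. The Met window holds 1 CACCC and 3 GGGCGG matches, and the Egfr window 1 of each. At least 1 CACCC match stood in 57.5% of all windows and at least 1 GGGCGG match in 35.7%. Windows were found for 7 of the 10 genes. The Erbb2 window holds 4 CACCC matches and the Tgfa window 3. Such matches describe letters only, and binding was not measured.

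None of the 9 measured genes differed past the threshold. By limma, 0 of 17097 genes (0%) passed at a Benjamini-Hochberg adjusted p under 0.05, and the adjusted p of the 9 genes lay between 0.992 and 0.997. At an unadjusted p under 0.05 stood 1 of the 9, Erbb3, beside 3.69% of all genes (631 genes, with 1.21% higher and 2.48% lower in the libraries labelled DeltaKlf6). By group mean 5 of the 9 were higher in the libraries labelled DeltaKlf6 (Btc, Hbegf, Egfr, Erbb2 and Tgfa) and 4 lower (Erbb3, Met, Ereg and Hgf), with a median log2 difference of 0.086, beside -0.011 over all genes. An exact permutation test of 3 arrays against 3 cannot give a two-sided p below 0.1 for any single gene.

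**Figure D1:**
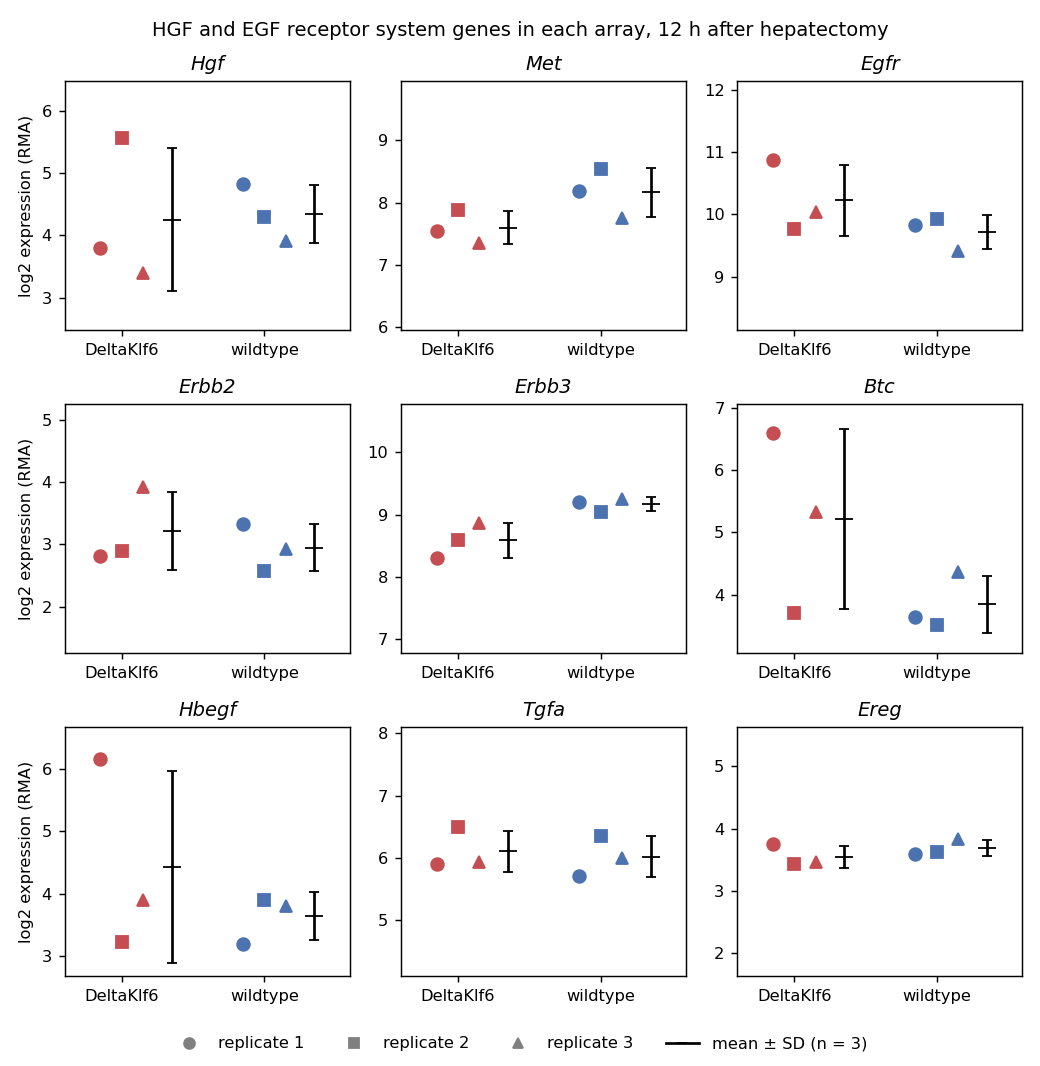
Log2 expression of 9 genes in each array of DeltaKlf6 (red, left) and wildtype (blue, right) livers 12 h after partial hepatectomy; symbols mark the replicate number, black bars the mean and SD (n = 3), and every panel spans the same range of the log2 axis. The groups do not overlap for Erbb3 alone, and Btc and Hbegf have the widest spread among the libraries labelled DeltaKlf6.

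Met, the HGF receptor, was lower by group mean in the libraries labelled DeltaKlf6, while Hgf had no common direction among them. Met was at 7.55, 7.88 and 7.36 in libraries labelled DeltaKlf6 1, 2 and 3, against 8.19, 8.54 and 7.76 in wildtype 1, 2 and 3. DeltaKlf6 1 and 3 lay below every wildtype array, and DeltaKlf6 2 lay between wildtype 3 and wildtype 1, so the groups overlap. The mean was 7.60 ± 0.27 in DeltaKlf6 and 8.16 ± 0.39 in wildtype (SD, n = 3 each), a log2 difference of -0.57 (SE 0.27, 95% interval -1.19 to 0.06) or 1.48-fold lower, which did not pass (limma adjusted p = 0.992). It was -0.38 without wildtype 2 and -0.26 with the mean of probe sets. The second Met probe set, with a mean of 2.49, differed by 0.045 (SE 0.25).

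Hgf was at 3.80, 5.56 and 3.39 in libraries labelled DeltaKlf6 1, 2 and 3, against 4.83, 4.30 and 3.91 in wildtype 1, 2 and 3. The library labelled DeltaKlf6 2 was above and the other two were below all wildtype arrays. Its log2 difference was -0.095 (SE 0.54, 95% interval -1.35 to 1.16), and it turned to 0.13 without DeltaKlf6 1, 0.33 without DeltaKlf6 3 and 0.15 without wildtype 1. The other Hgf probe sets differed by -0.14 (SE 0.23) and 0.070 (SE 0.24). Both were highest in DeltaKlf6 1, at 4.07 and 3.72, and in both DeltaKlf6 2 lay below the wildtype mean, by -0.13 and -0.25. The probe sets of Hgf thus do not give 1 order of the libraries. Markers of stellate cells, known as the main source of Hgf, had a mean of 5.99, 6.32 and 5.24 over 7 of 8 markers in libraries labelled DeltaKlf6 1, 2 and 3, against 5.66 to 6.01 in wildtype. Lrat, the retinol-esterifying enzyme of stellate cells, was at 6.03, 7.56 and 5.46 in those libraries, against 6.63, 7.10 and 5.80 in wildtype. The Hgf probe set used and Lrat were both highest in DeltaKlf6 2 and lowest in DeltaKlf6 3. Neither dimmer Hgf probe set was highest in DeltaKlf6 2, though 1 of them was lowest in DeltaKlf6 3, at 3.44. Not all stellate markers had the highest and lowest library of Lrat. Des was highest in DeltaKlf6 2, at 4.87, but lowest in wildtype 1, at 3.95. Pdgfrb and Colec11 were highest in DeltaKlf6 1, at 4.84 and 6.79. Reln, Dcn and Col1a1 had the same highest and lowest library as Lrat. These last 5 markers were picked after their values were seen. The part of cell composition in the Hgf values was not tested, and in whole tissue fewer cells of a type and less RNA per cell cannot be told apart.

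Erbb3 was the 1 gene of the set whose groups did not overlap. This kinase-impaired receptor, a partner of EGFR and of ERBB2, was at 8.30, 8.59 and 8.86 in libraries labelled DeltaKlf6 1, 2 and 3, against 9.21, 9.05 and 9.25 in wildtype 1, 2 and 3. All 3 libraries labelled DeltaKlf6 lay below the lowest wildtype array, as held for 5.91% of all genes. The mean was 8.58 ± 0.28 in DeltaKlf6 and 9.17 ± 0.11 in wildtype (SD, n = 3 each), a log2 difference of -0.58 (SE 0.22, 95% interval -1.10 to -0.06). Its unadjusted p was 0.0323, at rank 397 of all genes, and it did not pass after adjustment (limma adjusted p = 0.992). The difference was -0.44 to -0.72 with each array left out in turn. A dim second probe set of Erbb3, with a mean of 2.74 over the 6 arrays and so under the array medians, differed by 0.093 (SE 0.31).

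Egfr was bright in every array and highest in the library labelled DeltaKlf6 1. The probe set used was at 10.87, 9.77 and 10.04 in libraries labelled DeltaKlf6 1, 2 and 3, against 9.82, 9.93 and 9.41 in wildtype 1, 2 and 3. DeltaKlf6 1 and 3 were above every wildtype array and DeltaKlf6 2 was within the wildtype range. The log2 difference was 0.50 (SE 0.32, 95% interval -0.24 to 1.25, limma adjusted p = 0.992) and 0.18 without DeltaKlf6 1.

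The Egfr value depends on the probe set. A second probe set nearly as bright was at 9.99, 9.93 and 9.70 in libraries labelled DeltaKlf6 1, 2 and 3, against 10.14, 10.14 and 9.37 in wildtype, a difference of -0.0089 (SE 0.26). Of 6 Egfr probe sets 3 were higher and 3 lower by group mean, with differences from -0.66 (SE 0.50) to 0.62 (SE 0.37). Over all 6 the mean difference was 0.16. No direction for Egfr holds across its probe sets.

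Erbb2, the ligandless receptor, was dim, with a mean of 3.08 that lies under the array medians. It was at 2.81, 2.90 and 3.93 in libraries labelled DeltaKlf6 1, 2 and 3, against 3.33, 2.58 and 2.93 in wildtype 1, 2 and 3. The library labelled DeltaKlf6 3 alone lay above wildtype. The log2 difference of 0.26 (SE 0.35) turned to -0.094 without that library, and detection was not assessed. DeltaKlf6 3 is also the library with the largest 3' minus 5' signal of Gapdh, though not of actin, and the part of RNA quality in this value was not tested.

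**Figure D2:**
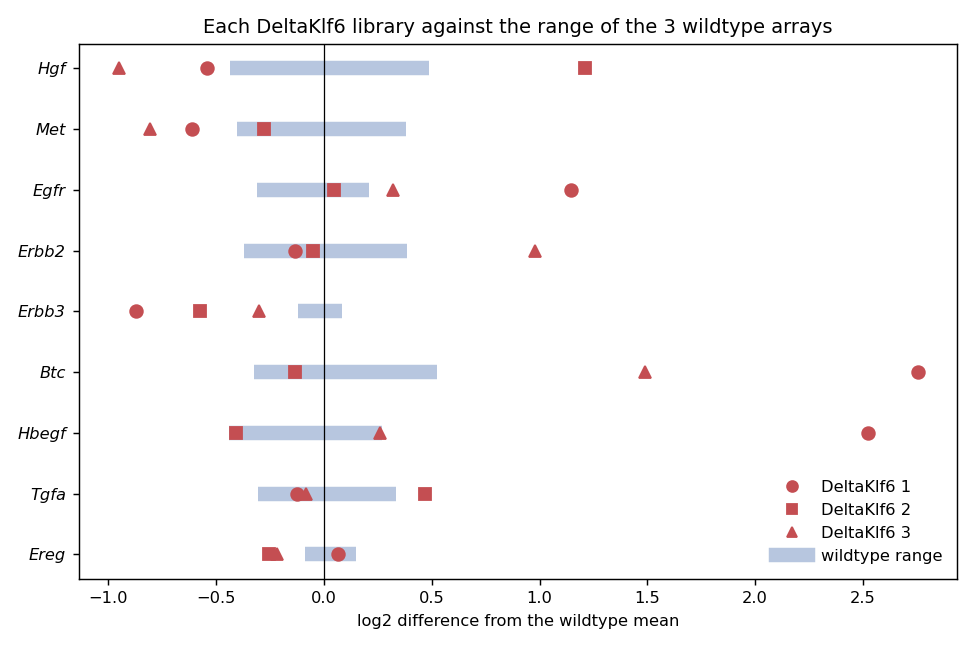
Log2 difference of each DeltaKlf6 library (red symbols, 1 per library) from the wildtype mean for 9 genes, over the range of the 3 wildtype arrays (blue bar). Only for Erbb3 do all 3 libraries lie on 1 side of the bar; Btc, Hbegf and Egfr have their highest symbol in DeltaKlf6 1, at 2.75, 2.52 and 1.15.

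Among the EGFR ligands Btc had the largest difference and Hbegf the next. By the probe sets used, both were highest in the library labelled DeltaKlf6 1. Btc encodes betacellulin, a ligand of EGFR and ERBB4. It was at 6.60, 3.71 and 5.33 in libraries labelled DeltaKlf6 1, 2 and 3, against 3.65, 3.52 and 4.37 in wildtype 1, 2 and 3. DeltaKlf6 1 and 3 lay above every wildtype array, and DeltaKlf6 2 lay inside the wildtype range. The Btc values in DeltaKlf6 2, wildtype 1 and wildtype 2 lay near the array medians of 3.30 to 3.45, and detection was not assessed. The mean was 5.21 ± 1.45 in DeltaKlf6 and 3.84 ± 0.46 in wildtype (SD, n = 3 each), a log2 difference of 1.37 (SE 0.65, 95% interval -0.14 to 2.87) or 2.58-fold, which did not pass (limma adjusted p = 0.992). Without DeltaKlf6 1 the difference was 0.68, and without DeltaKlf6 2 it was 2.12 (adjusted p = 0.529). The dimmer Btc probe set differed in the same direction, by 0.32 (SE 0.23), and was highest in DeltaKlf6 3.

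Hbegf, the heparin-binding EGF-like factor that is induced early after liver injury, stood out in 1 library. It was at 6.16, 3.23 and 3.89 in libraries labelled DeltaKlf6 1, 2 and 3, against 3.19, 3.90 and 3.81 in wildtype 1, 2 and 3. DeltaKlf6 2 and 3 were within the wildtype range. Its second probe set repeated this, at 5.68, 3.41 and 2.91 in DeltaKlf6 1, 2 and 3, against 3.35, 3.14 and 2.82 in wildtype, although DeltaKlf6 2 here lay just above wildtype. The log2 difference of 0.79 (SE 0.68, limma adjusted p = 0.992) became -0.075 without DeltaKlf6 1. Outside DeltaKlf6 1 the Hbegf values, 3.19 to 3.90 by the probe set used, lay near the array medians of 3.30 to 3.45.

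Tgfa and Ereg had the smallest differences among the ligands of EGFR. Tgfa, the hepatocyte-made autocrine ligand of EGFR, was at 5.90, 6.49 and 5.94 in libraries labelled DeltaKlf6 1, 2 and 3, against 5.72, 6.36 and 6.00 in wildtype 1, 2 and 3. The groups overlap widely, and the log2 difference was 0.086 (SE 0.27, 95% interval -0.53 to 0.70, limma adjusted p = 0.995). It was -0.10 without DeltaKlf6 2 and -0.067 without wildtype 1. Of the other Tgfa probe sets, both dimmer than the array medians, 1 did not overlap between groups. It was at 2.79, 2.97 and 3.32 in the libraries labelled DeltaKlf6 and 2.58, 2.65 and 2.76 in wildtype (difference 0.37, SE 0.21). Groups without overlap, with DeltaKlf6 higher, were found for 3.41% of all genes. The remaining Tgfa probe set differed by -0.052 (SE 0.18).

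Ereg encodes epiregulin, a ligand of EGFR and ERBB4. It was at 3.75, 3.43 and 3.47 in libraries labelled DeltaKlf6 1, 2 and 3, against 3.60, 3.62 and 3.83 in wildtype 1, 2 and 3. DeltaKlf6 2 and 3 lay below every wildtype array and DeltaKlf6 1 inside their range, with a log2 difference of -0.14 (SE 0.21, 95% interval -0.62 to 0.34, limma adjusted p = 0.992). It was -0.24 without DeltaKlf6 1, -0.076 without DeltaKlf6 2 and -0.062 without wildtype 3. Its range over the 6 arrays, 0.41, was the narrowest of the 9 genes and that of Btc, 3.08, the widest. Ereg and Btc lie on either side of Areg on mouse chromosome 5, with Epgn, which encodes epigen, as the next protein-coding gene beside Ereg. Of these neighbours Epgn was at 2.92, 3.07 and 3.84 in libraries labelled DeltaKlf6 1, 2 and 3, against 2.42, 2.60 and 3.10 in wildtype 1, 2 and 3. The values of Epgn lie mostly under the array medians, and its log2 difference was 0.57 (SE 0.31).

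**Figure D3:**
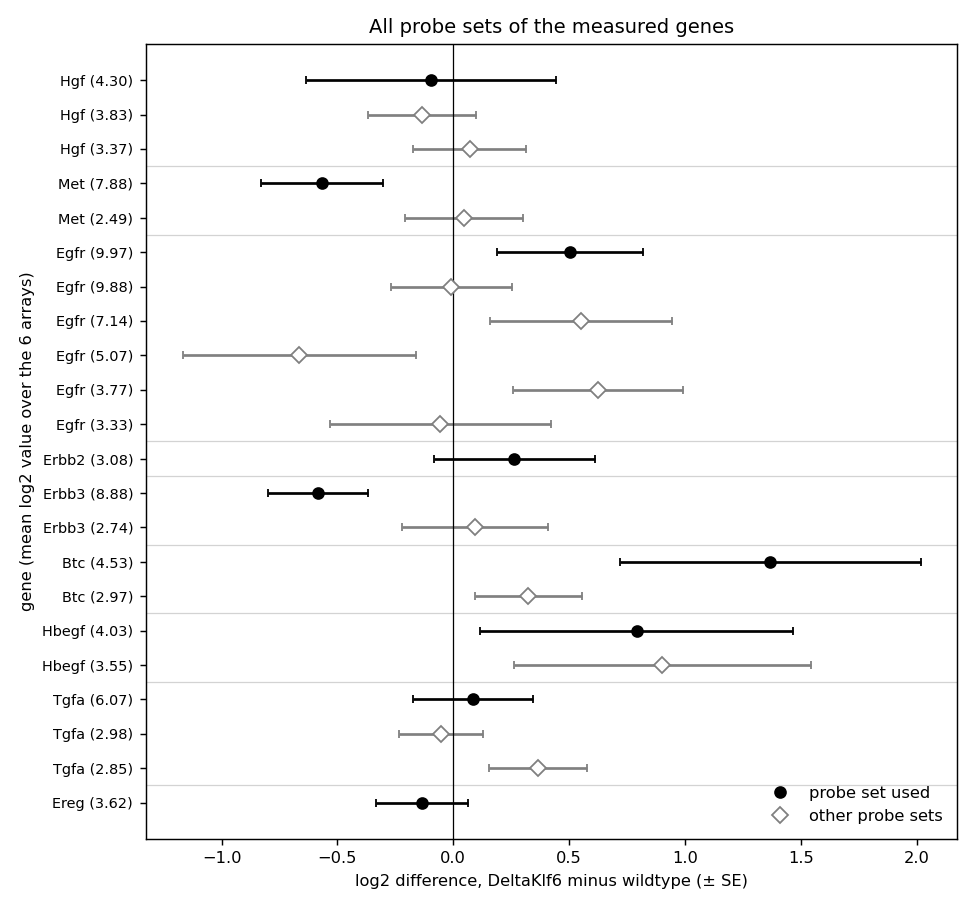
Log2 difference, DeltaKlf6 minus wildtype, with its SE, for all 22 probe sets of the 9 genes; the black circle is the probe set used, open diamonds are the others, and the number after each name is the mean log2 value over the 6 arrays. Both Btc and both Hbegf probe sets lie to the right of 0, the 6 Egfr probe sets lie on both sides, and the second probe sets of Met and Erbb3 are dim and near 0.

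Several genes that stood out did so in the same library, and other genes were highest elsewhere. By the probe sets used, Btc, Hbegf and Egfr were highest in the library labelled DeltaKlf6 1 and Erbb3 was lowest there. Thus 3 of 9 genes were at their highest in that array, beside 19.3% of all genes. Both Hbegf probe sets were highest there. The second Btc probe set was highest in DeltaKlf6 3, at 3.31, beside 3.28 in DeltaKlf6 1. The Egfr probe set nearly as bright was highest in wildtype 1 and 2, at 10.14, beside 9.99 in DeltaKlf6 1. The dim Erbb3 probe set was lowest in wildtype 3, at 2.14. Tgfa was highest in DeltaKlf6 2 and Erbb2 in DeltaKlf6 3, by the probe sets used. Hgf was highest in DeltaKlf6 2 by the probe set used and in DeltaKlf6 1 by its other probe sets. Klf6 was also highest in DeltaKlf6 1, and its part in these values was not tested. The ERK-inducible genes, transcripts induced by the cascade below both receptor systems, had a median of 1.14 above the wildtype mean in DeltaKlf6 1, 0.35 in DeltaKlf6 2 and -0.13 in DeltaKlf6 3. Of these Fos, an immediate early transcription factor, was at 7.46, 4.81 and 3.17 in libraries labelled DeltaKlf6 1, 2 and 3, against 4.11, 4.69 and 3.55 in wildtype; it was picked after its values were seen.

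The lists of other pathway genes held 98 genes, of which 88 were measured. None passed after adjustment, and 4 stood at an unadjusted p under 0.05, all lower (4.55%, beside 3.69% of all genes). Groups did not overlap for 8 of them (9.09%, beside 9.32% of all genes), 7 lower and 1 higher. By group mean 39 were higher and 49 lower in the libraries labelled DeltaKlf6, with a median log2 difference of -0.047. Over all genes 48.4% were higher and 51.6% lower, which is the background for the counts of each list below.

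The PI3K-AKT list, the survival and growth branch, had 9 of 10 measured genes lower by group mean, and the median log2 difference was -0.36. The kinase gene Mtor was at 7.68, 7.71 and 7.99 in libraries labelled DeltaKlf6 1, 2 and 3, against 8.72, 8.34 and 8.52 in wildtype (difference -0.73, SE 0.21). All 3 libraries labelled DeltaKlf6 lay below every wildtype array. Pdpk1, the kinase that phosphorylates AKT, was at 6.06, 5.98 and 6.24 in DeltaKlf6 1, 2 and 3, against 6.68, 6.50 and 6.97 in wildtype, again without overlap (difference -0.62, SE 0.22). Pik3r2, a regulatory subunit of PI3K, differed by -0.62 (SE 0.25) with overlap. These 3 had an unadjusted p under 0.05 and a limma adjusted p of 0.992. With each gene read as the mean of its probe sets, the list median was -0.095.

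The ERK-inducible list had 10 of 12 genes higher by group mean and a median of 0.34, which was -0.018 without the library labelled DeltaKlf6 1. Egr1 was at 8.53, 8.13 and 6.51 in libraries labelled DeltaKlf6 1, 2 and 3, against 6.75, 6.41 and 6.69 in wildtype, so DeltaKlf6 3 lay inside the wildtype range. Its difference was 1.11 (SE 0.48). Dusp1, a phosphatase of MAP kinases, differed by 0.92 (SE 0.40) and Etv5, an ETS factor, by 0.70 (SE 0.47). The RAS-ERK cascade itself had 4 of 7 genes higher and a median of 0.086, which was -0.14 without DeltaKlf6 2, -0.044 without DeltaKlf6 1 and -0.041 without wildtype 1. Araf (0.28, SE 0.39), Braf (-0.25, SE 0.33) and Map2k2 (-0.18, SE 0.21), kinases of the cascade, had the smallest unadjusted p there.

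Receptor adaptors had 9 of 12 genes lower and a median of -0.13, which was 0.019 without the library labelled DeltaKlf6 3. Grb2, which links the receptors to RAS, was at 6.50, 6.75 and 6.37 in libraries labelled DeltaKlf6 1, 2 and 3, against 6.90, 7.02 and 7.02 in wildtype (difference -0.44, SE 0.21). The groups did not overlap. Crk, an adaptor, differed by -0.46 (SE 0.25) and Sos2, a RAS exchange factor, by 0.39 (SE 0.23). Feedback and turnover genes had 10 of 18 lower and a median of -0.059, which was 0.064 with the mean of probe sets, 0.029 after quantile normalization again and 0.12 without DeltaKlf6 3. Socs4 was at 6.08, 6.37 and 5.49 in libraries labelled DeltaKlf6 1, 2 and 3, against 6.60, 6.72 and 6.63 in wildtype (difference -0.67, SE 0.26). This SOCS-box protein had an unadjusted p of 0.0346 and groups that did not overlap. The RAS-ERK inhibitor Spred2 differed by 0.61 (SE 0.30) and Socs5, a SOCS-box protein linked to EGFR turnover, by -0.46 (SE 0.28).

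Genes that activate HGF or hold back its activation had 7 of 11 higher and a median of 0.11, which was -0.043 without DeltaKlf6 2. Spint2, a membrane inhibitor of the HGF-activating proteases, was at 9.73, 10.06 and 10.11 in libraries labelled DeltaKlf6 1, 2 and 3, against 10.35, 10.24 and 10.52 in wildtype, with no overlap (difference -0.41, SE 0.21, limma adjusted p = 0.992). Plaur, the urokinase receptor, differed by 0.60 (SE 0.39) and Plat, tissue plasminogen activator, by 0.31 (SE 0.41). The HGF-like ligand gene Mst1 differed by -0.030 (SE 0.26) and its receptor gene Mst1r by 0.18 (SE 0.41).

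Ligand shedding genes had 7 of 9 lower and a median of -0.086, which was 0.26 without the library labelled DeltaKlf6 3 and 0.087 with array weights. Adam17, the main sheddase of EGFR ligands, was at 6.52, 7.30 and 5.98 in libraries labelled DeltaKlf6 1, 2 and 3, against 6.96, 6.95 and 6.98 in wildtype, so the libraries labelled DeltaKlf6 lay on both sides (difference -0.36, SE 0.33). Adam10 differed by -0.25 (SE 0.25), and Adam12, dim in all arrays, by -0.29 (SE 0.19) without overlap. The other EGF family ligands with Erbb4 had 4 of 7 lower and a median of -0.046, which was 0.16 without DeltaKlf6 2. Besides Epgn, Egf differed by 0.37 (SE 0.29) and the receptor gene Erbb4 by 0.18 (SE 0.19), with most values under the array medians.

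**Figure D4:**
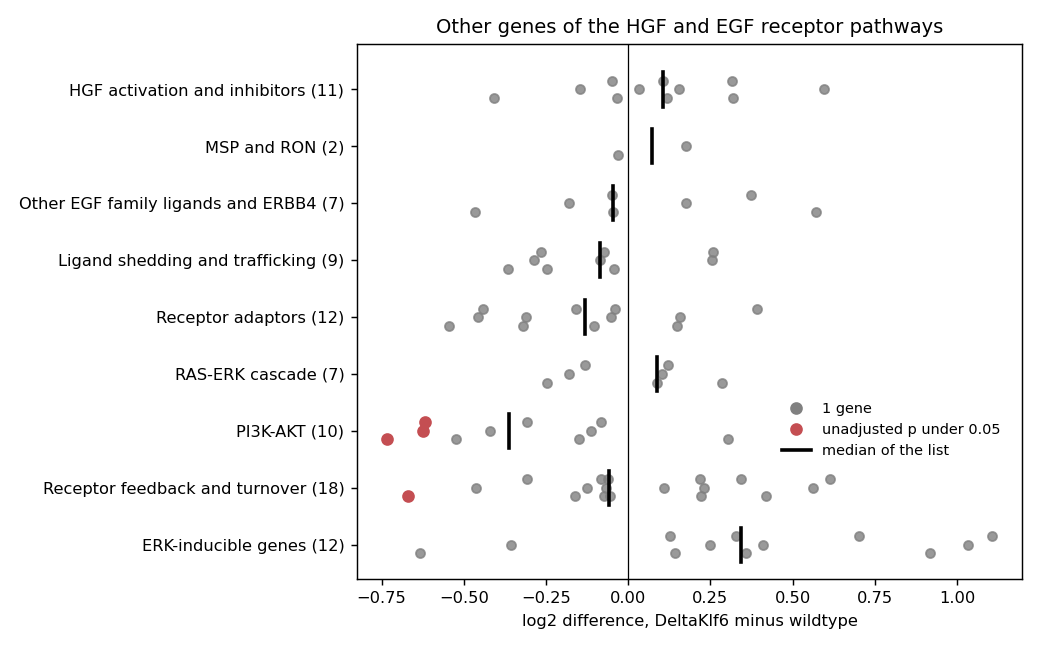
Log2 difference, DeltaKlf6 minus wildtype, of each measured gene (dots) in the 9 pathway lists, with the list median (black bar) and the number measured in brackets; red dots have an unadjusted p under 0.05. The 4 red dots lie below 0, 3 of them in the PI3K-AKT list.

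The genes whose values ran most like those of Erbb3 over the 6 arrays, by the root mean square difference of centred log2 values, were Cryzl1, Rab27b and Pex14, each at 0.07, beside a median of 0.45 over all genes. For Btc they were Cyp2b10 (0.39), Sphk1 (0.42) and Tspyl2 (0.42), beside a median of 1.16. Cyp2b10, a drug-inducible cytochrome P450, was at 7.94, 5.56 and 6.58 in libraries labelled DeltaKlf6 1, 2 and 3, against 6.00, 5.16 and 6.47 in wildtype 1, 2 and 3. It shares with Btc the highest value in DeltaKlf6 1 and the next in DeltaKlf6 3.

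Markers of other liver cells were read beside these values. Sinusoidal endothelial markers had a mean of 6.44, 6.73 and 6.23 over 8 of 8 markers in libraries labelled DeltaKlf6 1, 2 and 3, against 6.56 to 6.65 in wildtype. Markers of Kupffer cells and macrophages, which also make Hbegf and Ereg, were at 7.06, 7.73 and 6.97 over 8 of 8 markers in DeltaKlf6 1, 2 and 3, against 6.98 to 7.15 in wildtype. Cholangiocyte markers were at 3.44, 3.05 and 3.24 over 5 of 6 markers in DeltaKlf6 1, 2 and 3, against 2.82 to 3.42 in wildtype. Mesothelial markers (5 of 5 measured) were at 2.88 to 3.35 in the DeltaKlf6 group and 3.01 to 3.18 in wildtype, and neutrophil markers (5 of 7) at 4.43 to 5.13 in DeltaKlf6 and 4.53 to 5.30 in wildtype. Platelet markers (5 of 5) were at 3.75 to 4.52 in DeltaKlf6 and 3.96 to 4.34 in wildtype. Lymphocyte markers (6 of 7) were at 3.33 to 3.43 in DeltaKlf6 and 3.51 to 3.59 in wildtype. Erythroid markers (3 of 5) were at 7.67 to 7.74 in DeltaKlf6 and 7.47 to 7.52 in wildtype. Only these 2 of the 10 marker means did not overlap between groups, beside 9.32% of all genes taken singly. Taken singly, 0 of the 3 erythroid and 1 of the 6 lymphocyte markers did not overlap. The lymphocyte mean lies near the array medians, and the largest erythroid difference was that of Hba-a1, at 0.53 (SE 0.24). The part of these cells in the growth factor values was not tested.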

How the data were processed

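Liver RNA of 6 mice was measured on 1-channel Affymetrix arrays. The values the authors deposited are log2 expression. The submitters' processing notes name RMA and, as software, Affymetrix Expression Console 1.2.1. That the base is 2 was inferred from the highest value, 13.9, under the limit of 16 for a 16-bit scanner. RMA normalizes quantiles, so a shift shared by most genes may not show. The deposited values still differ between arrays in median and upper quartile, as given above. The sources used here do not give the genome build behind the probe annotation. Depth does not apply to arrays, where 3 arrays per group limit the precision, and no scan date or batch is given.

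Of 45141 probe sets 28898 had a single gene in the platform annotation, 551 several and 15692 none here, and 104 were controls. Each of 17097 genes was read from its probe set with the highest mean. Genotype was tested with limma 3.58.1 in R 4.3.3 (lmFit, eBayes, two-sided), with Benjamini-Hochberg adjustment over all genes and a threshold of 0.05. The fit was tested on simulated data. Groups and replicate numbers came from the sample titles. Differences are DeltaKlf6 minus wildtype.

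The 10 genes and the lists were chosen with earlier results of these data known. Named were the 10 genes, Klf6, up to 3 genes per pathway list with the smallest unadjusted p, the 3 genes most like the member with the smallest p and like that with the widest range, and up to 2 markers per cell type; others are said to be picked later. The replicate numbers were not used to pair the arrays in the main fit, and whether they mark pairs is not given. Alternatives were the probe set used, filters, normalization, variance settings, array weights, the replicate block and each array left out.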

Additional observations from a re-analysis of the deposited data

How the results depend on the processing

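Across 15 alternatives 0 of the 9 genes passed the threshold, and 0 genes on the whole array did, with a lowest adjusted p of 0.457 for Erbb3 without the library labelled DeltaKlf6 3. By the probe set used or the mean of probe sets, Erbb3, Met, Ereg, Btc and Egfr had 1 sign throughout, while single probe sets of Erbb3, Met and Egfr had the opposite sign. With the mean of all probe sets of a gene, Erbb3 differed by -0.25, Met by -0.26, Egfr by 0.16 and Btc by 0.85. With array weights Hgf turned to 0.21. With each array left out in turn, the log2 difference of Hgf spanned -0.75 to 0.33, that of Hbegf -0.075 to 1.39, that of Tgfa -0.10 to 0.25, that of Erbb2 -0.094 to 0.46, that of Met -0.77 to -0.38 and that of Ereg -0.24 to -0.062. The median over the 9 genes was -0.00443 with dim genes left out, where Erbb2 is not tested, and 0.20 after quantile normalization again, and spanned -0.076 to 0.17 with an array left out. The PI3K-AKT median was -0.095 with the mean of probe sets. The median of the other EGF family ligands was -0.46 with dim genes left out, where 1 gene remains, and spanned -0.068 to 0.16 with an array left out. That of feedback genes spanned -0.14 to 0.12. Genes at an unadjusted p under 0.05 numbered 631 of 17097. With dim genes left out they were 404 of 10937, and with every probe set tested separately 1620 of 45037 probe sets. These counts rest on different numbers of features tested. With an array left out, 379 to 1546 of 17097 genes stood there (1546 when DeltaKlf6 3 and 1165 when DeltaKlf6 2 was omitted, 388 and 379 when wildtype 1 or wildtype 3 was). The cause of these moves was not tested, beyond the number of features or arrays tested.

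The replicate numbers in the labels share no stated source. Deviations of same-numbered arrays from their group means correlated across genes at -0.00494, 0.26 and 0.08 for numbers 1, 2 and 3. The 0.26 was the highest correlation between arrays of the 2 groups, while the library labelled DeltaKlf6 1 was closer to wildtype 3, at 0.07. These values do not settle whether the numbers mark pairs. With the replicate number as a block, 703 genes stood at an unadjusted p under 0.05 and 0 passed adjustment, and the log2 differences of the 9 genes were the same, such as -0.58 for Erbb3 (adjusted p = 0.981). Under the block 3 of the 9 stood at an unadjusted p under 0.05 in limma, beside 703 of all 17097 genes. They were Btc (0.036), Met (0.042) and Erbb3 (0.047). Without the block 1 of the 9 did, beside 631 (3.69%) of all genes. Precision rests on 3 arrays per group, and Erbb2, Ereg and most of the dimmer probe sets lie near the array medians. So do Hbegf outside DeltaKlf6 1, and Btc in DeltaKlf6 2, wildtype 1 and wildtype 2. Other Egfr probe sets, with means of 9.88, 7.14 and 5.07, lie well above those medians.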
